A study of Mus musculus with 6 samples.

Results

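The genes described here are 10 components of the machinery that silences repeats and early-embryonic genes: Zfp809, Trim28, Setdb1, Atf7ip, Morc2a, Mphosph8, Uhrf1, Dnmt1, Dnmt3a and Dnmt3b. They were taken by gene name from a deposited expression table of 30071 genes. All 10 were found once each, and all 10 had enough counts to be tested among the 18177 genes that did. The libraries were poly(A)-selected RNA from MC3T3-E1, a mouse pre-osteoblast cell line, grown on polyetheretherketone (PEEK, an implant polymer) with a nano- and microstructured surface. In 3 libraries the cells also received supernatant of RAW264.7, a mouse macrophage line, and 3 libraries came from the same surface alone. Both groups thus share the cell line and the surface, and the labels give neither the surface under the RAW264.7 cells nor the dose and time.

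In the mouse, endogenous retroviruses and other repeats are recognised by KRAB zinc finger proteins, which bind DNA and recruit the corepressor TRIM28. TRIM28 in turn brings in the histone methyltransferase SETDB1, which places the repressive mark H3K9me3 with its partner ATF7IP. The HUSH complex, of which MPP8 (encoded by Mphosph8) is the chromodomain subunit, spreads this mark and works with the chromatin compactor MORC2A. DNA methylation adds a second layer, written anew by DNMT3A and DNMT3B and copied at replication by DNMT1, which UHRF1 guides to half-methylated DNA. In differentiated cells these layers also keep germline and early-embryonic genes off.

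Total counts were 74927500 to 80861720 with supernatant and 76895736 to 82803173 on PEEK alone. Replicate 1 with supernatant was the library least like its own group, with a root mean square log2 difference of 0.75 and 0.79 from replicates 2 and 3, against 0.65 between those, and on PEEK alone replicate 1 differed by 0.69 and 0.71 from replicates 2 and 3, against 0.63 between those. Mitochondrial transcripts took 3.25 to 4.49% of counts with supernatant and 3.70 to 4.68% on PEEK alone. Of 8 osteoblast markers 7 were tested, with a summed level of 5095 to 8660.4 CPM (library-size-scaled counts) with supernatant and 7149.9 to 8513 CPM on PEEK alone. Most of that sum was the collagen gene Col1a2, at 4523 to 8098 CPM with supernatant and 6619.7 to 7920.0 CPM on PEEK alone. Replicate 1 with supernatant stood apart as the highest library for Alpl and Sp7 and the lowest for Spp1. Alpl, the alkaline phosphatase gene, had 20.6, 5.95 and 4.91 FPKM with supernatant and 3.93, 7.08 and 6.46 FPKM on PEEK alone. The osteoblast factor gene Sp7 had 8.86, 3.32 and 2.69 FPKM with supernatant and 4.39, 3.77 and 3.596 FPKM on PEEK alone. Spp1 had 114.1, 214.9 and 240.4 FPKM with supernatant and 219.9, 209.4 and 192.6 FPKM on PEEK alone. Col1a1, of smallest p among the 7, had 23.4, 12.0 and 14.9 CPM with supernatant and 23.1, 22.2 and 19.6 CPM on PEEK alone. Its log2 fold change was -0.37 (edgeR adjusted p = 0.677). Over all 6 libraries Col1a1 averaged 2.84 FPKM, beside 511 FPKM for Col1a2. The cause of this gap was not tested, and no source used here says how reads were counted, so the Col1a1 level is uncertain. Ibsp had 142, 36 and 16 counts with supernatant and 55, 125 and 133 counts on PEEK alone. Runx2, the master factor of the lineage, had 11434 to 18558 counts with supernatant and 10828 to 12898 counts on PEEK alone, while Bglap, the osteocalcin gene of mature osteoblasts, had 17, 0 and 0 counts with supernatant and 0, 2 and 2 counts on PEEK alone. Of 10 macrophage markers 7 were in the table and 5 were tested, and those 5 together reached 8.04 to 12.1 CPM with supernatant and 9.87 to 13.2 CPM on PEEK alone. The leukocyte gene Ptprc had 0, 0 and 4 counts with supernatant and 0 in every library on PEEK alone.

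None of the 10 silencing genes passed an adjusted p of 0.05 in either direction with edgeR, where 0.0165% of all tested genes did. The DESeq2 test also called none of them, against 1.73% of all tested genes. One member, Atf7ip, had an unadjusted p under 0.05 (0.00838 in edgeR's quasi-likelihood test, 0.375 after Benjamini-Hochberg adjustment), against 8.95% of all tested genes. That count became 3 without replicate 1 on PEEK alone (Atf7ip, Dnmt1 and Trim28) and 2 without replicate 1 with supernatant (Atf7ip and Uhrf1). Over all tested genes the count moved as well, from 1627 of 18177 to 2132 of 18885 and 3257 of 18819 in these fits. Atf7ip was also the only member whose 3 libraries with supernatant all lay above all 3 on PEEK alone, an arrangement seen for 7.83% of tested genes. None had all 3 below, an arrangement seen for 7.36%. The estimated log2 fold change, with supernatant minus PEEK alone, was positive for 7 members and negative for 3, with a median of 0.09, beside -0.01 over all tested genes. Of all 18177 tested genes 8783 were positive. Genes measured in the same 6 libraries can vary together, so counts of signs here and below are not independent results. Every member's 95% interval lay between -0.38 and 0.50 on the log2 scale. Because these are bulk samples, fewer cells of a type and less RNA per cell cannot be told apart.

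The levels of the 10 genes differed widely. In FPKM, the authors' measure of fragments scaled to gene length and library size, Trim28 averaged 67.5 ± 3.30 with supernatant and 61.3 ± 6.70 on PEEK alone (SD, n = 3 each, as for all FPKM means here). Dnmt1 averaged 54.3 ± 3.06 FPKM with supernatant and 48.0 ± 6.2 FPKM on PEEK alone, and Uhrf1 31.5 ± 3.96 and 27.0 ± 2.29 FPKM in the same groups. Over all 6 libraries the order then ran Morc2a (mean 18.7 FPKM), Mphosph8 (16.5), Setdb1 (15.9), Zfp809 (6.42), Atf7ip (5.65), Dnmt3a (1.31) and Dnmt3b (0.684). Trim28 stood at the 96.8th percentile of mean FPKM among tested genes and Dnmt3b at the 29.7th. Between neighbours in this order the 6-library ranges overlapped for Trim28 and Dnmt1, for Morc2a and Mphosph8, for Mphosph8 and Setdb1 and for Zfp809 and Atf7ip, although Trim28 was above Dnmt1 in 6 of 6 libraries. The ranges did not overlap for the other neighbours. The levels rest on the gene lengths that counts and FPKM imply, which were 21.4 kb for Atf7ip and 17.2 kb for Dnmt3a but 3.05 to 7.60 kb for the other 8 genes, so the FPKM of Atf7ip and Dnmt3a would be higher if their transcripts in these cells are shorter.

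**Figure D1:**
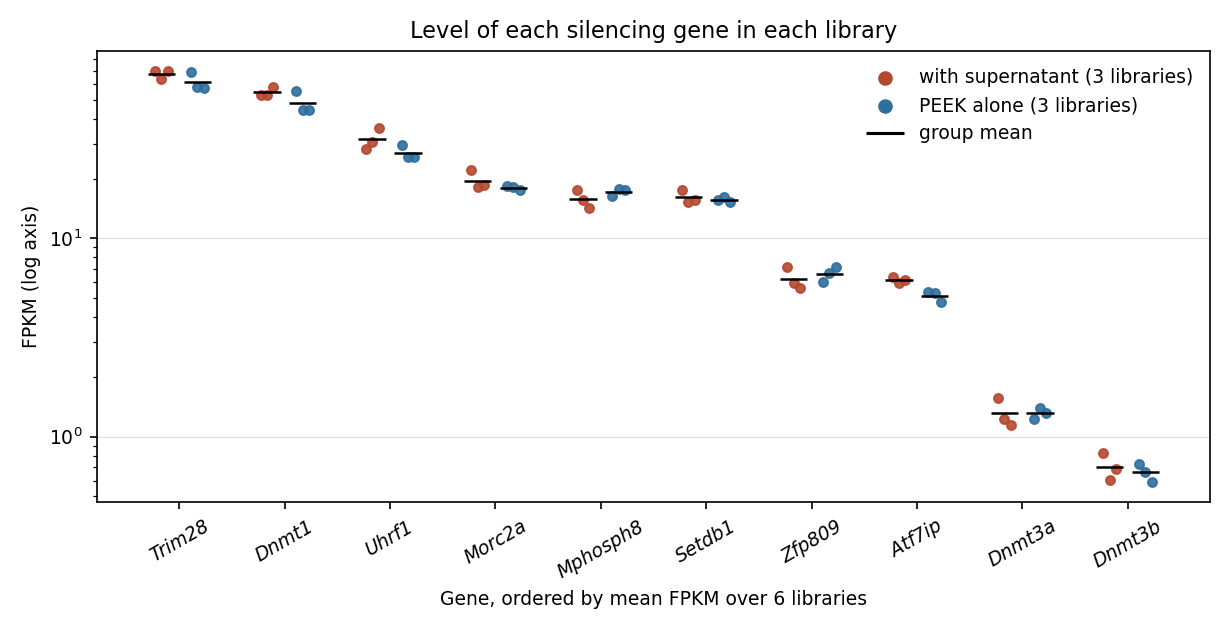
FPKM (log axis) of the 10 silencing genes in each library, with supernatant left of PEEK alone for each gene, with group means as bars. Trim28, Dnmt1 and Uhrf1 lie above 25 FPKM in every library, and Dnmt3a and Dnmt3b lie below 1.6 FPKM in every library.

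At the recognition step, Zfp809 encodes the KRAB zinc finger protein that binds the primer binding site of murine leukaemia virus-type proviruses in mouse cells. It lies on chromosome 9 from 22137010 to 22151391, plus strand, by the table's own coordinates (as for each gene here), which name no build. It had 21.4, 18.4 and 17.1 normalized CPM with supernatant and 18.2, 20.6 and 22.1 CPM on PEEK alone, in the order of replicates 1 to 3 as in all lists of 3 below. The groups overlapped widely, and the log2 fold change was -0.10 (SE 0.13, edgeR adjusted p = 0.867). It was -0.18 without replicate 1 with supernatant, -0.16 without replicate 1 on PEEK alone, and -0.03 without replicate 3 of either group. KRAB zinc finger genes are a large family of similar sequence, and no source used here says how reads with several matches were counted, so this count is uncertain.

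Trim28, the corepressor that KRAB zinc finger proteins share, is on chromosome 7 from 12733041 to 12764962, plus strand. It had 289.8, 275 and 298 CPM with supernatant and 294, 250.1 and 247 CPM on PEEK alone. Replicate 1 on PEEK alone lay among the libraries with supernatant, and the other two on PEEK alone were the lowest of the 6. The log2 fold change was 0.13 (SE 0.09, 95% interval -0.08 to 0.33, edgeR adjusted p = 0.736), and it was 0.22 without replicate 1 on PEEK alone (adjusted p = 0.403) and 0.08 without replicate 3 on PEEK alone (adjusted p = 0.99). The mitochondrial share of counts was lower in the 4 libraries of higher Trim28 (3.45, 4.49 and 3.25% with supernatant, 3.70% in replicate 1 on PEEK alone) than in the lower pair on PEEK alone (4.68% in replicate 2 and 4.66% in replicate 3), and its part in the result was not tested.

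Setdb1, the H3K9 methyltransferase of this pathway, is on chromosome 3 from 95230836 to 95264513, minus strand. Its values were close together, at 121, 109 and 110.0 CPM with supernatant and 109, 115 and 108 CPM on PEEK alone. The log2 fold change was 0.03 (SE 0.08, 95% interval -0.14 to 0.20, edgeR adjusted p = 0.937), so the interval spans folds of 0.906 to 1.15. Atf7ip, which keeps SETDB1 protein stable and in the nucleus, is on chromosome 6 from 136483165 to 136587860, plus strand. It had 133, 128 and 132 CPM with supernatant and 114, 114 and 103 CPM on PEEK alone. The lowest library with supernatant was thus above the highest on PEEK alone, and the spread within each group was small, with a coefficient of variation of 2.10% with supernatant and 5.57% on PEEK alone. Its log2 fold change was 0.25 (SE 0.07, 95% interval 0.08 to 0.42, a fold of 1.19), with an adjusted p of 0.375 in edgeR and 0.101 in DESeq2. Over 13 alternative fits the estimate was positive each time, from 0.21 to 0.28, and none called it, with adjusted p of 0.101 to 0.914. The ratio of Setdb1 to Atf7ip FPKM was 2.74, 2.56 and 2.52 with supernatant and 2.90, 3.06 and 3.18 on PEEK alone. The groups did not overlap in this ratio, 1 of 6 ratios formed between members, and the share of gene pairs that separate this way was not computed.

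Of the HUSH arm, Mphosph8 encodes MPP8, the subunit that reads H3K9me3, and lies on chromosome 14 from 56905705 to 56934887, plus strand. It had 62.9, 58.3 and 52.4 CPM with supernatant and 60.2, 66.0 and 65.5 CPM on PEEK alone. Replicate 1 of the supernatant group exceeded replicate 1 on PEEK alone, and the groups overlapped there. The log2 fold change was -0.14 (SE 0.09, 95% interval -0.35 to 0.07, edgeR adjusted p = 0.697), the most negative of the 10, and it was -0.08 without replicate 3 with supernatant. Morc2a, an ATPase that compacts chromatin at HUSH targets, is on chromosome 11 from 3599191 to 3640477, plus strand. It had 142, 120.5 and 122 CPM with supernatant and 121, 121 and 117 CPM on PEEK alone. Replicate 1 with supernatant stood above all others, and without it the log2 fold change was 0.03, against 0.10 (SE 0.08, edgeR adjusted p = 0.773) with all libraries. The ratio of Morc2a to Mphosph8 FPKM was 1.26, 1.15 and 1.30 with supernatant and 1.12, 1.02 and 0.999 on PEEK alone. This was the other of the 6 ratios without overlap, and the share of gene pairs that separate this way was not computed here either. Morc2a and Mphosph8 each overlapped between the groups, and the ratio is given as a description only.

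**Figure D2:**
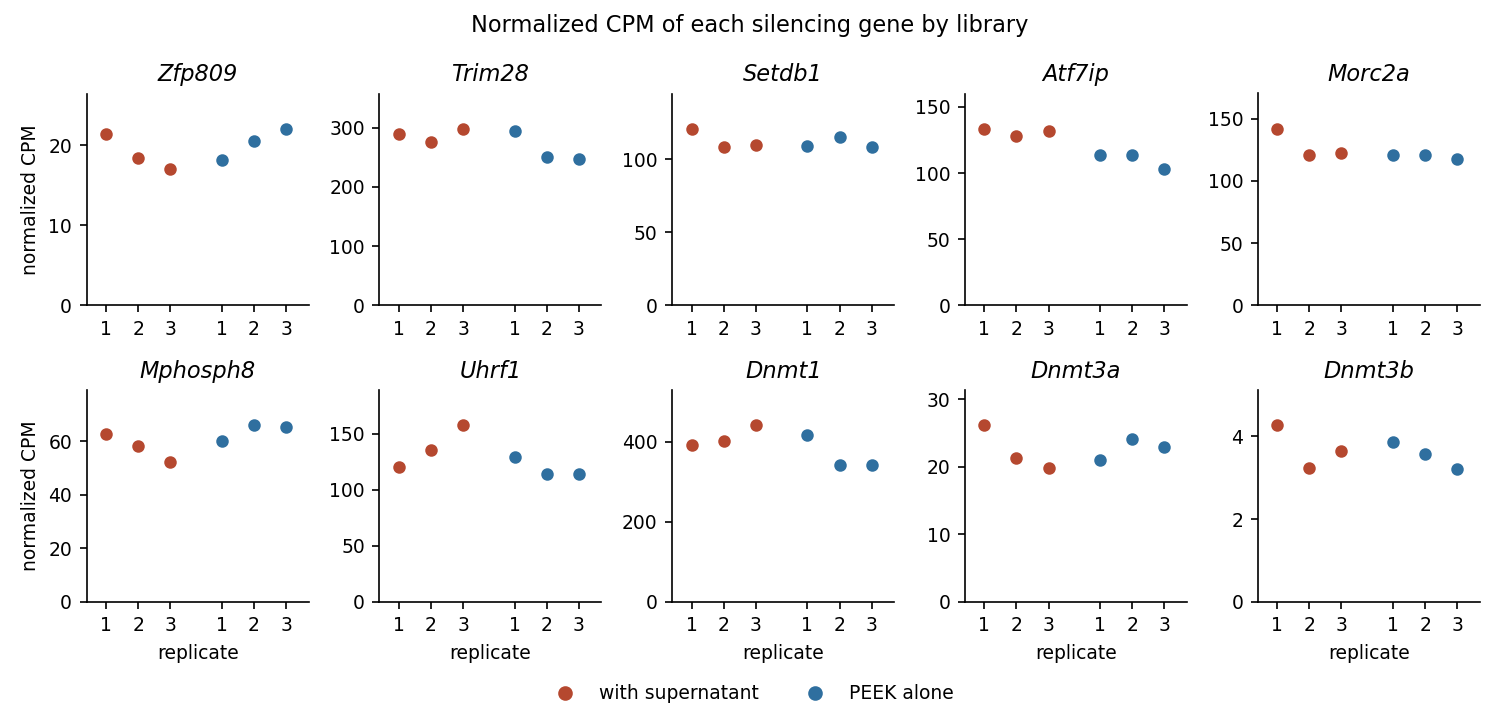
Normalized CPM of each silencing gene in each library, 1 panel per gene with its own axis starting at 0, replicates 1 to 3 with supernatant left of replicates 1 to 3 on PEEK alone. Only for Atf7ip do the groups not overlap, with 128 to 133 CPM with supernatant and 103 to 114 CPM on PEEK alone.

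The maintenance pair of DNA methylation had the highest estimates after Atf7ip. Uhrf1, the reader of half-methylated DNA, is on chromosome 17 from 56610321 to 56630486, plus strand. It had 120.0, 136 and 157 CPM with supernatant and 129, 114 and 114 CPM on PEEK alone. Replicates 2 and 3 with supernatant were the highest 2 libraries, while replicate 1 with supernatant lay below replicate 1 on PEEK alone. The log2 fold change was 0.21 (SE 0.11, 95% interval -0.04 to 0.46, edgeR adjusted p = 0.627). It was 0.31 without replicate 1 with supernatant (adjusted p = 0.150) and 0.10 without replicate 3 with supernatant (adjusted p = 0.919). Dnmt1, the maintenance methyltransferase, is on chromosome 9 from 20818505 to 20864275, minus strand. It had 390.3, 403 and 440.4 CPM with supernatant and 417, 341 and 341 CPM on PEEK alone, so that replicate 1 on PEEK alone was second of the 6. The log2 fold change was 0.17 (SE 0.10, 95% interval -0.07 to 0.40, edgeR adjusted p = 0.686), and it was 0.28 without replicate 1 on PEEK alone (adjusted p = 0.353). The ratio of Dnmt1 to Uhrf1 FPKM stayed within 1.62 to 1.88 with supernatant and 1.73 to 1.86 on PEEK alone.

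The promoter windows of this pair are shown because, of the 10 genes, they alone held an octamer of the E2F type, the class of site through which many replication genes are timed to S phase. The letters searched were TTTCCCGC, TTTCGCGC, TTTGCCGC and TTTGGCGC on both strands, in windows from 250 bases before to 50 after each RefSeq start (build GRCm38.p6). Among 17 windows of the 10 genes 2 held a match, beside 2.26% of all 32851 windows. Counted by gene, 2 of 10 members had a match, beside 2.60% of all 27025 genes with a window, 7 of 16 DNA replication genes with a window, 3 of 11 H3K9 methylation writers and readers (Cbx3, Suv39h1 and Zfp644), 2 of 9 DNA methylation partners and erasers (Cdca7 and Hells) and 1 of 7 PRC1.6 genes (Cbx3 again). The HUSH, KRAB zinc finger and corepressor lists had none among 5, 9 and 11 genes, and the germline list had 1 of 9 (Sycp3). The windows below are chr9:20952574-20952873, minus strand, for Dnmt1 and chr17:56304063-56304362, plus strand, for Uhrf1, each read along the gene, with the matches in capitals. In GENCODE M21 the first is the start of transcript Dnmt1-203 and the second of Uhrf1-202.
Dnmt1: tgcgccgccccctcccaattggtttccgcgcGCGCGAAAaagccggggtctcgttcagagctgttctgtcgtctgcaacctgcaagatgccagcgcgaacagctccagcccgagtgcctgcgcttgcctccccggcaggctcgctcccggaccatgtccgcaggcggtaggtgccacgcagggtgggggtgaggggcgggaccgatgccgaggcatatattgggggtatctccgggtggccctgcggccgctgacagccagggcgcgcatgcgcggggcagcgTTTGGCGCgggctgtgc
Uhrf1: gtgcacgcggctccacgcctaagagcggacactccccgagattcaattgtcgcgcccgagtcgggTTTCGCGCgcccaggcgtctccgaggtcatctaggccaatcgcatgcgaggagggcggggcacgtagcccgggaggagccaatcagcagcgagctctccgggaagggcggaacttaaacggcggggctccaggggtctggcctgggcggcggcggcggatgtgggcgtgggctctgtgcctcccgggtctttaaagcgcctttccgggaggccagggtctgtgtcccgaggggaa
In the Dnmt1 window the matches begin 219 bases before and 33 bases after the start of Dnmt1-203, the first as GCGCGAAA, the reverse complement of TTTCGCGC. In the Uhrf1 window the match begins 185 bases before the start of Uhrf1-202. Which starts these cells used was not tested, so the distances hold for these transcripts only. Both windows held 33 CpG dinucleotides, beside a median of 23 over the 17 member windows and 7 over all windows. The observed-to-expected CpG ratio was 0.91 for Dnmt1 and 0.96 for Uhrf1, beside medians of 0.7 over the member windows and 0.38 over all windows. A Morc2a window with 46 CpG and Dnmt3a windows with 46 and 47 held no match. Every octamer searched contains a CpG, and the shares with a match were not adjusted for CpG content. The other windows, 2 of Dnmt1 and 1 of Uhrf1, held no match, and the deposited counts do not separate starts. A match is a description of letters, not of binding.

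The DNA replication genes were set beside the pair as a measure of cycling. All 20 listed genes were tested, and 0 were called by edgeR or DESeq2. All 20 had a positive log2 fold change, beside 8783 of all 18177 tested genes. In edgeR 4 had an unadjusted p under 0.05, beside 8.95% of all tested genes. The count of 4 became 13 without replicate 1 with supernatant, and 1 without replicate 3 with supernatant or without replicate 2 or 3 on PEEK alone. Over all tested genes the count was 3257 of 18819 without replicate 1 with supernatant and 1215 of 18849 without replicate 3 with supernatant. It was 1068 of 18870 and 1020 of 18903 without replicates 2 and 3 on PEEK alone. The median log2 fold change of the replication genes was 0.15, beside -0.01 over all tested genes. Their median deviation from the PEEK-alone mean was -0.02, 0.17 and 0.31 in replicates 1, 2 and 3 with supernatant and 0.01, -0.04 and 0.00 on PEEK alone (log2 CPM). Uhrf1 deviated by 0.02, 0.19 and 0.41 with supernatant and by 0.12, -0.06 and -0.06 on PEEK alone. Dnmt1 deviated by 0.10, 0.14 and 0.27 with supernatant and by 0.19, -0.10 and -0.10 on PEEK alone. Replicate 3 with supernatant was highest for all 3 measures, and replicate 1 on PEEK alone stood 0.19 and 0.12 above the PEEK-alone mean for Dnmt1 and Uhrf1 and 0.01 above it for the replication list. The part of cycling in the values of the pair was not tested. The replication genes of smallest p were Cdc6, which loads the replicative helicase (6.85, 7.73 and 8.59 FPKM with supernatant, 5.88, 6.29 and 5.32 FPKM on PEEK alone, edgeR adjusted p = 0.382), the G1/S cyclin gene Ccne1 (adjusted p = 0.455) and the helicase subunit gene Mcm7 (adjusted p = 0.488).

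**Figure D3:**
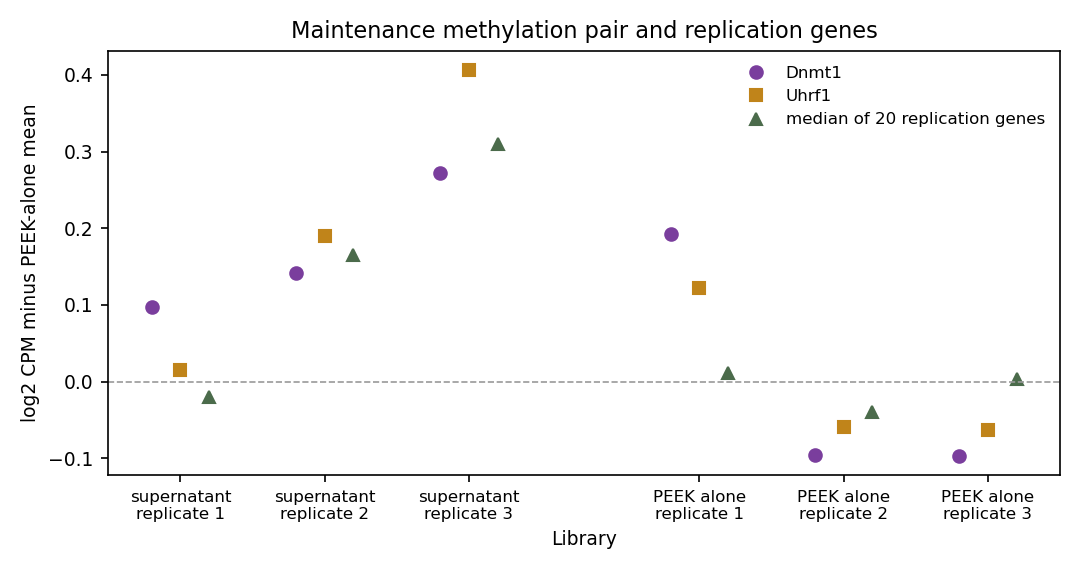
Deviation of Dnmt1, Uhrf1 and the median of 20 DNA replication genes from their PEEK-alone means, in log2 CPM, in each library, supernatant libraries left. All 3 are highest in replicate 3 with supernatant, at 0.27, 0.41 and 0.31, and in replicate 1 on PEEK alone Dnmt1 stands at 0.19 and the replication median at 0.01.

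The de novo methyltransferases were low. Dnmt3a, on chromosome 12 from 3856007 to 3964443, plus strand, had 26.1, 21.4 and 19.8 CPM with supernatant and 21.1, 24.1 and 22.9 CPM on PEEK alone. The supernatant libraries held both the highest and the lowest value, and the log2 fold change was -0.02 (SE 0.13, 95% interval -0.31 to 0.27, edgeR adjusted p = 0.980). Dnmt3b, on chromosome 2 from 153491370 to 153529650, plus strand, had 337, 240 and 294 counts with supernatant and 298, 292 and 251 counts on PEEK alone. These are 4.26, 3.24 and 3.65 CPM with supernatant and 3.85, 3.56 and 3.20 CPM on PEEK alone, with a log2 fold change of 0.07 (SE 0.19, 95% interval -0.35 to 0.50, edgeR adjusted p = 0.938). The intervals of these genes were the widest with that of Zfp809, which leaves folds of 0.783 to 1.41 for Dnmt3b. The FPKM ratio of Dnmt3a to Dnmt3b was 1.66 to 2.04 with supernatant and 1.69 to 2.22 on PEEK alone, and that of Dnmt1 to Dnmt3a was 33.7 to 50.3 with supernatant and 32.0 to 44.8 on PEEK alone. Dnmt3l, the catalytically inactive cofactor of germ cells, had 0 counts in all 6 libraries.

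**Figure D4:**
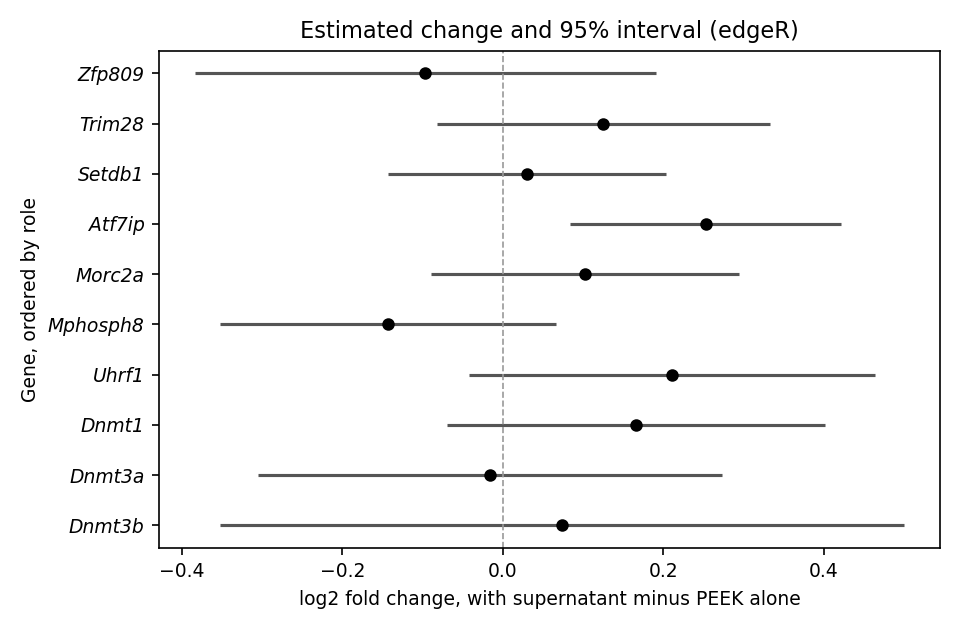
Estimated log2 fold change (points) with its 95% interval (lines) for each silencing gene, with supernatant minus PEEK alone, ordered by role from recognition to DNA methylation. The interval of Atf7ip, 0.08 to 0.42, is the only one that does not cross 0, and no gene passed after adjustment.

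The members did not vary alike across the 6 libraries. Of 45 pairs of members, 1 had a Pearson correlation of log2 CPM above 0.9 (Trim28 with Dnmt1, r = 0.947) and 3 had one below -0.9. Uhrf1 and Mphosph8 had r = -0.999 (Spearman rho -0.943), and r = -0.995 without the 2 libraries farthest from the Uhrf1 median. Replicate 3 with supernatant was highest for Uhrf1 at 157 CPM and lowest for Mphosph8 at 52.4 CPM, and replicates 2 and 3 on PEEK alone were lowest for Uhrf1 and highest for Mphosph8 at 66.0 and 65.5 CPM. Among 9690 named genes of at least 2 FPKM, no gene had a lower r with Uhrf1 than Mphosph8, and 231 were below -0.9. Uhrf1 and Zfp809 had r = -0.910. The points of these correlations share libraries, depth and scaling, the pairs were picked as the extremes of 45, and the values are given as a description. The r of Trim28 with Dnmt1 was 0.594 without the 2 libraries farthest from the Trim28 median.

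Genes with the most similar patterns were sought for 3 members by the highest Pearson r of log2 CPM over the same 6 libraries and 9690 genes. For Dnmt1 they were Fam110a (r = 0.997), the splicing factor gene Sf3a1 (0.994) and the lipid acyltransferase gene Lpcat4 (0.993), and 276 genes had r above 0.9. For Uhrf1 they were Tubg1, which encodes gamma-tubulin of the centrosome (0.991), Dip2a (0.986) and the Hedgehog signal transducer gene Smo (0.985), with 341 genes above 0.9. For Trim28 they were the splicing factor gene Srsf9 (0.996), Smarca4, which encodes the ATPase BRG1 of the SWI/SNF remodeller (0.99), and Vars2 (0.99), with 170 genes above 0.9. Smarca4 had 380.7, 368 and 386 CPM with supernatant and 380.5, 331 and 324 CPM on PEEK alone. Its replicate 1 on PEEK alone lay among the libraries with supernatant, a placement that follows from picking Smarca4 by its likeness to Trim28.

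The wider machinery was followed in 6 lists of partners, 58 genes in all when each is counted once. All 58 were in the table and 54 were tested. With edgeR 0 were called in either direction (0.0165% of all tested genes were), and 7 had an unadjusted p under 0.05, all 7 with a positive log2 fold change, beside 8.95% of all tested genes in either direction. The count of 7 became 15 without replicate 1 with supernatant and 12 without replicate 1 on PEEK alone, while it was 3 without replicate 2 of either group, 4 without replicate 3 on PEEK alone and 5 without replicate 3 with supernatant. Over all tested genes the count without replicates 1, 2 and 3 with supernatant was 3257 of 18819, 1114 of 18843 and 1215 of 18849. Without replicates 1, 2 and 3 on PEEK alone it was 2132 of 18885, 1068 of 18870 and 1020 of 18903. DESeq2 called 2 of the 54, both higher, beside 1.73% of all tested genes. The log2 fold change was positive for 40 and negative for 14, with a median of 0.07, beside 8783 positive of all 18177 tested genes. All 3 libraries with supernatant lay above all 3 on PEEK alone for 13 of the 54 (7.83% of all tested genes) and below for 1 (7.36%). The median deviation of the 54 from their PEEK-alone means was 0.12, 0.07 and 0.04 in replicates 1, 2 and 3 with supernatant and 0.02, -0.00 and -0.01 on PEEK alone, in log2 CPM.

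The genes called by DESeq2 were Chaf1a and Cdca7, from different lists. Chaf1a, the large subunit of the CAF-1 histone chaperone, had 15.3, 15.4 and 16.5 FPKM with supernatant and 13.2, 12.0 and 11.1 FPKM on PEEK alone (log2 fold change 0.37, SE 0.08, adjusted p = 0.272 in edgeR and 0.0193 in DESeq2). Cdca7, which recruits the remodeller HELLS, had 24.5, 24.6 and 25.5 FPKM with supernatant and 21.4, 19.2 and 18.99 FPKM on PEEK alone (0.31, SE 0.08, adjusted p = 0.305 in edgeR and 0.0426 in DESeq2). Neither gene's groups overlapped. Hells itself had 24.4, 28.0 and 25.3 FPKM with supernatant and 23.6, 21.6 and 22.3 FPKM on PEEK alone (0.19, edgeR adjusted p = 0.572), and Tdg, the glycosylase that removes oxidised methylcytosine, 5.18, 5.49 and 5.40 FPKM with supernatant and 4.75, 4.47 and 3.92 FPKM on PEEK alone (0.28, edgeR adjusted p = 0.482). For both the groups did not overlap, and neither was called. Of 12 DNA methylation partners and erasers 11 were tested, 7 with a positive and 4 with a negative estimate and a median log2 fold change of 0.05. The negative ones, given after their values were seen, were the methylcytosine oxidases Tet1 (-0.12), Tet2 (-0.36, the largest in size of the list) and Tet3 (-0.12) and the methyl-CpG reader Mbd2 (-0.12), and none of these 4 was called by edgeR. Tet2 had 2.66, 1.45 and 1.47 FPKM with supernatant and 2.19, 2.59 and 2.28 FPKM on PEEK alone (SE 0.22, edgeR adjusted p = 0.674). The groups thus overlapped for Tet2, as they did for Tet1 and Tet3. Mbd2 was the 1 partner gene with all 3 supernatant libraries below all 3 on PEEK alone.

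Among 11 H3K9 methylation writers and readers 6 estimates were positive and 5 negative, with a median of 0.03. Suv39h1, a methyltransferase of pericentric heterochromatin, had 32.5, 32.0 and 33.8 FPKM with supernatant and 29.3, 26.8 and 26.6 FPKM on PEEK alone (log2 fold change 0.24, SE 0.07, edgeR adjusted p = 0.405). Its relative Suv39h2 had 6.15, 9.99 and 9.71 FPKM with supernatant and 7.64, 5.28 and 5.67 FPKM on PEEK alone (0.47, SE 0.21, edgeR adjusted p = 0.572). For Suv39h2 replicate 1 with supernatant lay below replicate 1 on PEEK alone, so the groups overlapped. Ehmt1, which encodes the H3K9 dimethyltransferase GLP, had a log2 fold change of 0.13.

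Of 5 listed HUSH partners 4 were tested, 3 with a positive and 1 with a negative estimate and a median of 0.02. Pphln1, which encodes the HUSH subunit periphilin, had a log2 fold change of 0.11 (edgeR adjusted p = 0.775), Tasor, the scaffold subunit, 0.03 (adjusted p = 0.948) and its paralogue Tasor2 -0.04 (adjusted p = 0.917). Of 10 KRAB zinc fingers and other retroelement repressors 8 were tested, 7 of them with a positive estimate. Resf1, which acts with SETDB1 at retroelements in mouse embryonic stem cells, had 23.9, 25.3 and 22.3 FPKM with supernatant and 20.3, 20.9 and 19.3 FPKM on PEEK alone, without overlap (log2 fold change 0.23, SE 0.08, edgeR adjusted p = 0.480). Zfp961 and Zfp568 followed, with log2 fold changes of 0.24 and 0.17 (edgeR adjusted p = 0.629 and 0.633).

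Of 13 corepressors and chromatin assembly genes 12 had a positive estimate, with a median of 0.10. Beside Chaf1a, the NuRD remodeller gene Chd4 had 68.9, 67.1 and 68.9 FPKM with supernatant and 65.5, 55.7 and 55.6 FPKM on PEEK alone (log2 fold change 0.20, SE 0.09, edgeR adjusted p = 0.547), and Daxx, the H3.3 chaperone gene, had a log2 fold change of 0.15. Among 8 genes of PRC1.6, the Polycomb complex that silences germline genes, 5 estimates were positive and 3 negative. E2f6, which encodes a DNA-binding subunit of the complex, had 5.62, 5.81 and 5.79 FPKM with supernatant and 5.04, 4.73 and 4.65 FPKM on PEEK alone, without overlap (0.24, SE 0.08, edgeR adjusted p = 0.453). Pcgf6 and Rybp had log2 fold changes of 0.23 and 0.16.

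**Figure D5:**
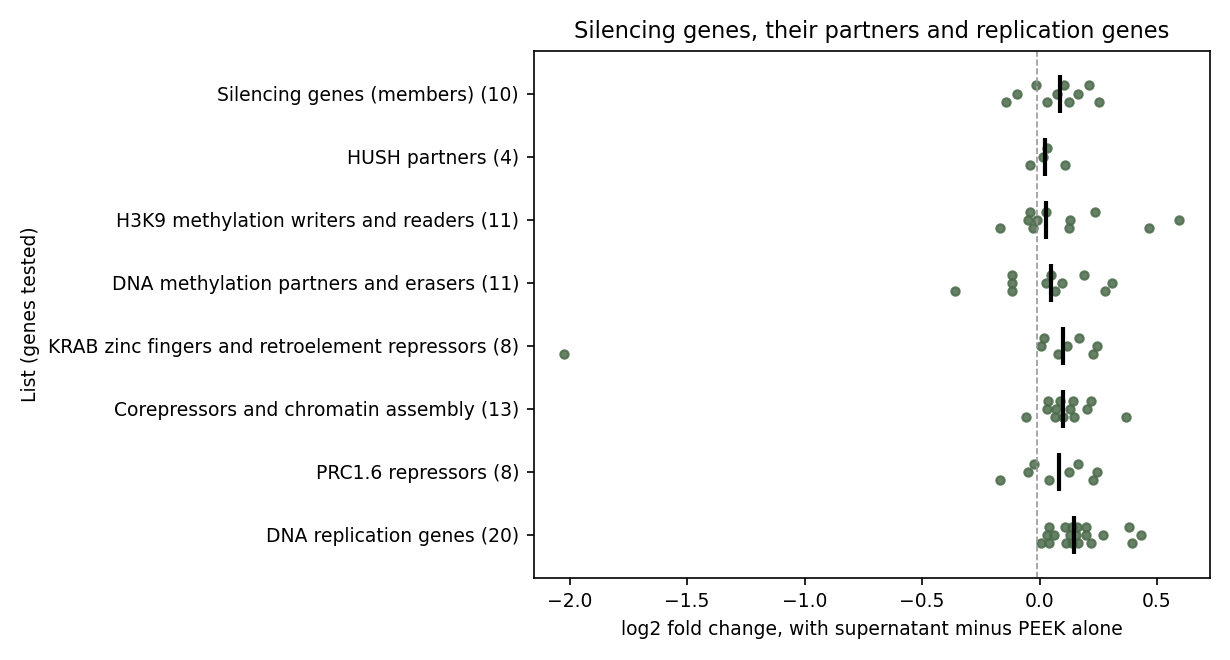
Log2 fold change, with supernatant minus PEEK alone, of each tested gene (points) of the 10 silencing genes, their 6 partner lists and the DNA replication genes, with list medians (bars) and the median of all tested genes (dashed line, -0.01). Medians run from 0.02 to 0.15, and the point at -2.02 is Zfp708, named after its value was seen, which had 10, 7 and 13 counts with supernatant and 0, 114 and 14 counts on PEEK alone.

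Germline genes listed as kept off by DNA methylation in somatic cells were read as targets. Of 16 listed genes 10 were in the table and analysed, and 7 of these 10 had too few counts to be tested. Dazl had 0 counts in all 6 libraries, and Ddx4, a germ cell helicase gene, had 0 in every library with supernatant and 0, 0 and 8 counts on PEEK alone. The synaptonemal complex gene Sycp1 was the most abundant, at 3.36, 2.32 and 1.9 FPKM with supernatant and 3.23, 2.62 and 2.68 FPKM on PEEK alone (log2 fold change -0.19, edgeR adjusted p = 0.835). Brdt, a testis bromodomain gene, had 1.40, 0.881 and 1.12 FPKM with supernatant and 1.11, 1.43 and 1.37 FPKM on PEEK alone (-0.22, edgeR adjusted p = 0.796). The groups overlapped for both. Over the 6 libraries Sycp1 had 561 to 950 counts and Brdt 348 to 625 counts, so neither read as off in these cells. Whether DNA methylation covers them here was not tested. Rhox5 had 20, 4 and 30 counts with supernatant and 0, 20 and 18 counts on PEEK alone, and was not called either (edgeR adjusted p = 0.921).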

How the data were processed

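Poly(A) RNA-seq libraries, 6 from MC3T3-E1 cells, were grouped by the treatment label, with replicate numbers from the library names. Titles call some libraries biological repeats but describe no cultures, and p-values then cover library-to-library spread, which may be technical. The kit marked strand and its adapters carried molecular identifiers, per the labels' protocols. The deposited table gave raw counts and FPKM per gene, per the file headers. The submitters' processing notes list HISAT2 2.2.1 and cutadapt 1.9. No source used here gives the counting tool, build, annotation, or the use of strand, identifiers or multiple matches in counting.

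Counts were tested with edgeR 4.0.16 (R 4.3.3): TMM, filterByExpr (minimum count 10, total 15; 18177 of 30071 genes kept), quasi-likelihood tests of group with no covariate, Benjamini-Hochberg adjusted p under 0.05 over all tested genes. SE is the size of the log2 fold change divided by the square root of F. CPM use TMM-scaled library sizes, and log2 CPM a prior count of 2. DESeq2 1.42.0 and limma 3.58.1 on log2(FPKM + 1) were alternatives. Tests were checked on simulated counts with planted changes larger than any member's estimate, so the check does not cover changes of the members' size.

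The members and lists were chosen with earlier results of these data known. Named were all 10 members, up to 3 genes of smallest p per list, and 3 genes of most similar pattern for Dnmt1, Uhrf1 and Trim28. Promoter windows are RefSeq's (GRCm38.p6) and matched all 10 members by symbol. Same-numbered libraries had correlations of deviations of -0.03, -0.01 and 0.02 and were not treated as pairs.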

Additional observations from a re-analysis of the deposited data

How the results depend on the processing

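With all 6 libraries, edgeR called 3 genes, DESeq2 called 315, an adjusted p under 0.1 called 20, edgeR without a low-count filter 0 (1903 at an unadjusted p under 0.05), limma without an FPKM filter 0 (2221) and the replicate block 0 (1330). Leaving out each library in turn gave 0 to 199 calls: 199, 5 and 3 without replicates 1, 2 and 3 with supernatant, and 1, 0 and 0 without replicates 1, 2 and 3 on PEEK alone. The cause of these differences was not tested. Under the replicate block Atf7ip had a log2 fold change of 0.25 and an adjusted p of 0.644, and same-numbered libraries share only a number.

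None of the 10 silencing genes was called under any of these alternatives. Dnmt3b was below the FPKM filter of both filtered limma fits and has no value there. All estimates kept their sign except 5 near 0: Setdb1 at -0.0088 and Dnmt3b at -0.025 without replicate 1 with supernatant, and Dnmt3a, which ranged over the left-out libraries from -0.13 to 0.066, at 0.017 and 0.066 without replicates 2 and 3 with supernatant and at 0.028 without replicate 2 on PEEK alone. Over the left-out libraries Setdb1 ranged from -0.0088 to 0.059 and Dnmt3b from -0.025 to 0.16. Counts of positive estimates, added after seeing the data, stayed between 5 and 8 of 10 members, 37 and 44 of 54 partners and 16 and 20 of 20 replication genes. Depth limits Dnmt3b most, with 240 to 337 counts.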
